A study of Mus musculus with 30 samples.

Results

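Aminoacyl-tRNA synthetases are the enzymes that join each amino acid to its transfer RNA (tRNA). Their genes were picked by name from the count table: symbols made of 1 letter followed by ars, with or without a final 1 or 2, plus Farsa, Farsb and Eprs. The rule found 37 of the table's 48440 genes, 20 of them for cytosolic enzymes and 17, all with names ending in 2, for mitochondrial enzymes. All 37 passed the filter on low counts and were tested. The rule uses gene names and no measured value.

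The 30 libraries hold mRNA from livers of female C57BL/6J mice, all wild type, with 5 libraries in each of 6 groups. Mice aged 8 weeks received an osmotic pump, which releases its content slowly, filled with phosphate-buffered saline (PBS) or with ACBP, the acyl-CoA-binding protein, at 2.5 mg/mL. Appetite loss was then brought on after 48 hours by CRS, a term the labels leave unexplained and which is read here as restraint stress, or after 72 hours by CDDP (cisplatin), a platinum drug that crosslinks DNA. The groups were PBS (PBS pump only), CDDP and CRS (PBS pump and 1 of the models), ACBP (ACBP pump only), CDDP+ACBP and CRS+ACBP. No group was only fed less, so an effect of CDDP or CRS cannot be told apart from that of eating less. The labels do not say that each library came from its own mouse, so p-values measure the spread between these libraries.

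In the cytosol, each synthetase charges the tRNAs that ribosomes use to translate nuclear genes, and 8 of the cytosolic genes encode enzymes of a large complex held together by the scaffold proteins Aimp1, Aimp2 and Eef1e1. Mitochondria translate the few proteins of their own genome with a separate set of enzymes, which are nuclear-encoded and imported; Gars and Kars, which have no partner ending in 2, make the enzymes of both compartments. Uncharged tRNA activates the kinase Gcn2, and the transcription factor ATF4 that follows is known to raise several cytosolic synthetase genes through a C/EBP-ATF response element in their promoters.

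Promoter windows were searched for its core, TGATGNAA, on both strands. RefSeq windows (GRCm38.p6, 250 bases before to 50 after each start) were matched for 27 of the 37 genes, 13 cytosolic and 14 mitochondrial. The core was present in 5 of the 13 cytosolic windows (Aars, Gars, Iars, Tars and Yars) and in 0 of the 14 mitochondrial windows, against 3.97% of all 32851 windows. The 30 bases around 1 match in each of these genes are shown in the direction of the gene, with the match in capitals, and Asns, the asparagine synthetase gene and a known ATF4 target, is shown for comparison.
Aars, chr8:111033840-111033869, plus strand: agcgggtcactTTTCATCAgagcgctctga
Gars, chr6:55037960-55037989, plus strand: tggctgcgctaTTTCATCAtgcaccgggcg
Iars, chr13:49682126-49682155, plus strand: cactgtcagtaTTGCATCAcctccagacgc
Tars, chr15:11399655-11399684, minus strand: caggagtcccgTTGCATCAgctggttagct
Yars, chr4:129189895-129189924, plus strand: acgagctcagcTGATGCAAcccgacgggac
Asns, chr6:7693214-7693243, minus strand: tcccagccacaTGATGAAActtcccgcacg
Among the synthetase sequences shown, the core lay on the strand opposite to the gene in all but that of Yars, and in Asns on the gene's own strand. CACGTG, the E-box that MYC can bind, was in 4 cytosolic windows (Aars, Farsb, Iars and Tars) and 1 mitochondrial window (Ears2), against 7.15% of all windows. CCGGAAG, an ETS-type motif, was in 5 and 4, against 8.86%, and TGACGTCA, the cyclic AMP response element, was in 0 and 0, against 1.79%. A match is a stretch of letters and no measurement of binding.

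Each library had between 13957380 and 18479134 reads assigned to genes. These were 34.7 to 42.6% of all reads once those of the 5 summary lines were added. The share was 36.3 to 38.3% in PBS and 39.4 to 42.6% in CDDP, and its part in the results was not tested. Levels are given as CPM, each gene's count relative to its library's total on genes, with totals scaled by edgeR's TMM factors. The factor was 0.701 in CDDP replicate 5, so values in that library were scaled up the most. In the other libraries the factor was 0.920 to 1.19. Members took 0.151 to 0.260% of the counts, and Lars2 alone 0.0440 to 0.141%. Hepatocyte markers summed to 75559 to 101314 CPM in PBS and 76710 to 98750 in CDDP, and all 7 were detected in every group. In CDDP+ACBP the sum was 51196 to 94829 CPM, with replicate 3 the lowest of all 30 libraries, and calls that change without that library are given beside the results. Other markers differed with cisplatin: the erythroid sum was 255 to 497 CPM in PBS and 5.37 to 9.66 in CDDP, the B and plasma cell sum 31.8 to 43.1 and 2.22 to 14.1, the Kupffer cell sum 306 to 368 and 149 to 234, and the neutrophil and monocyte sum 2.38 to 4.34 and 19.2 to 84.7. In CDDP+ACBP the erythroid sum was 197 to 1283 CPM and the Kupffer cell sum 184 to 243. The part of these cells in the results was not tested, and in bulk liver fewer cells of a type and less RNA per cell cannot be told apart. Summed skeletal muscle markers passed 1000 CPM in 6 libraries (PBS replicate 2, CRS replicate 1, ACBP replicate 2, CDDP+ACBP replicate 2, CRS+ACBP replicates 3 and 4), and brain markers passed 50 CPM in ACBP replicate 4. Counts that change by over 1.5 times without these 7 libraries are given beside the result.

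Per length, the cytosolic genes were mostly expressed above the mitochondrial ones. In PBS livers Lars2 was highest at 56.1 ± 14.7 CPM per kilobase of exon (SD, n = 5), and the next 6 genes were cytosolic: Mars (15.999 ± 2.41), Aars (15.6 ± 1.39), Sars (12.4 ± 1.04), Nars (11.6 ± 1.83), Dars (10.8 ± 1.29) and Vars (9.61 ± 0.989). Mars overlapped Aars, and Sars, Nars, Dars and Vars each overlapped the next, but all Aars libraries (at least 13.6) lay above all Sars libraries (11.3 to 13.3). Lengths count every annotated exon of a gene. Across the libraries Lars2 moved with a gene related to 18S ribosomal RNA (Pearson's r 0.80), as given below. Among the mitochondrial genes Hars2 (9.31 ± 1.87) and Aars2 (8.65 ± 1.36) followed Lars2. Mitochondrial genes were also among the lowest, such as Ears2, Nars2, Wars2, Pars2 (0.689 ± 0.270) and Mars2 (0.352 ± 0.0886), the last of these with 19 to 139 counts per library.

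Cisplatin was followed by higher levels of most cytosolic synthetase genes. In CDDP against PBS livers, 12 of the 20 cytosolic genes rose and none fell, with a median log2 difference of 0.51 against 0.02 over all genes tested. Of the 17 mitochondrial genes 4 rose (Iars2, Yars2, Ears2 and Nars2), 2 fell (Aars2 and Hars2) and 11 did not pass the test, with a median of 0.23. Of all 16304 genes tested 23.1% were called higher and 18.3% lower, 41.4% in all. Against that background the share of rises was above 23.1% in the cytosolic set, with 12 of 20, and close to it in the mitochondrial set, with 4 of 17. Libraries of the groups did not overlap for 13 higher and 2 lower members, against 13.3% and 11.4% of all genes. The difference between the cytosolic and mitochondrial sets is a description, and no test of the sets was made.

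**Figure D1:**
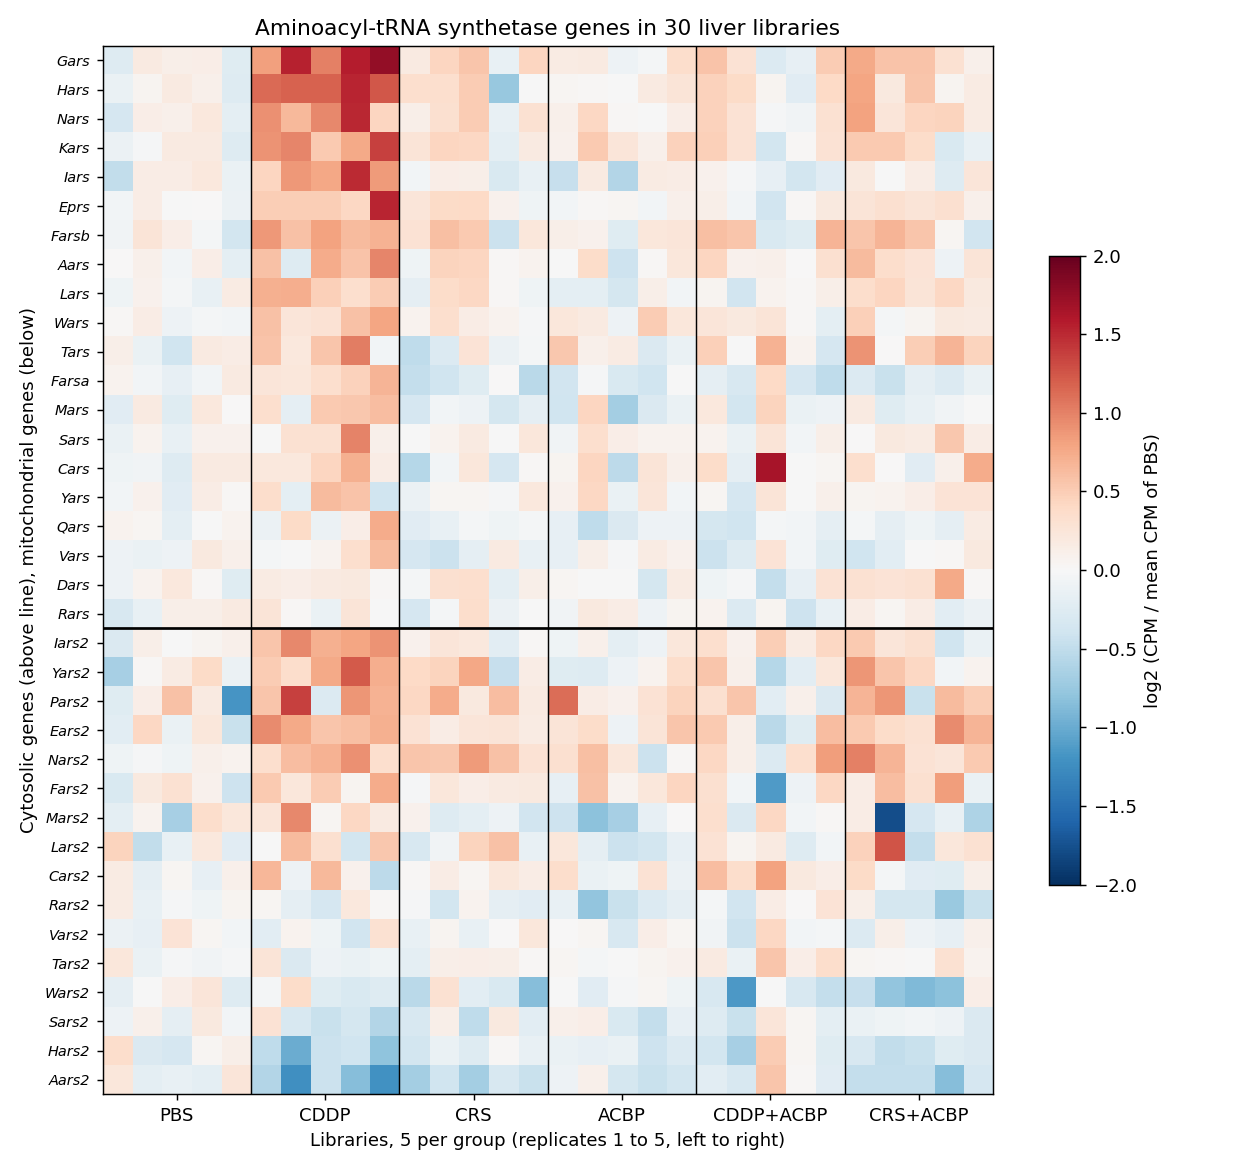
Each row is a synthetase gene and each column a library; colour gives log2 of its CPM over the gene's mean in PBS, on a scale from -2 to 2, with cytosolic genes above the line and mitochondrial genes below it. The CDDP columns are red in most cytosolic rows and blue for Hars2 and Aars2, while most CDDP+ACBP columns look much like those of PBS. In CDDP+ACBP replicate 3, Cars was at 124 CPM and Fars2 at 8.97, against PBS means of 39.7 and 19.8.

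Gars, which charges tRNA with glycine, had the largest rise. Its level was 20.6, 27.8, 26.9, 27.1 and 20.9 CPM in the PBS libraries and 43.7, 71.4, 49.8, 73.1 and 83.7 CPM in the CDDP libraries. The lowest CDDP library lay above every PBS library, and the 15 libraries of the CRS, ACBP and CRS+ACBP groups ranged from 22.3 to 41.8 CPM. The log2 difference of CDDP from PBS was 1.38 ± 0.19 (approximate SE, edgeR adjusted p = 2.58e-06), a 2.61-fold rise. Hars, for histidine, followed with 14.1, 16.1, 17.5, 16.5 and 12.9 CPM in PBS and 33.9, 34.8, 34.8, 44.2 and 36.3 in CDDP. These groups were far apart, and the log2 difference was 1.26 ± 0.18 (adjusted p = 5.32e-06).

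Nars, for asparagine, was at 39.9, 55.5, 54.0, 58.6 and 44.3 CPM in PBS and at 95.2, 79.2, 98.7, 143 and 68.0 in CDDP, a log2 difference of 0.94 ± 0.17 (adjusted p = 0.000110). Kars, for lysine, was at 32.0, 34.2, 39.5, 39.6 and 29.1 CPM in PBS and at 64.7, 68.6, 50.3, 59.3 and 89.6 in CDDP, a difference of 0.93 ± 0.18 (adjusted p = 0.000190). In both genes every CDDP library was above every PBS library, and the CDDP libraries were more widely spread. Iars, for isoleucine, was at 10.8, 16.9, 16.8, 17.6 and 13.8 CPM in PBS and at 20.4, 27.7, 25.8, 42.8 and 27.4 in CDDP, a difference of 0.93 ± 0.18 (adjusted p = 0.000218). Its transcripts share 767 stretches of 31 bases with Gm4849, so its reads may be split between the genes.

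Eprs encodes a fused enzyme for glutamate and proline. It was at 69.7, 80.3, 71.96, 72.1 and 66.4 CPM in PBS and at 102, 101, 101, 95.6 and 208 in CDDP, a log2 difference of 0.75 ± 0.16 (adjusted p = 0.000621). CDDP replicate 5, the library with the lowest TMM factor, stood far above the other 4 libraries, and the log2 difference was 0.47 without it. Lars, for leucine, the enzyme that also senses leucine for mTORC1, was at 19.4, 21.8, 20.03, 18.5 and 23.1 CPM in PBS and at 33.7, 34.2, 28.5, 25.96 and 29.4 in CDDP, a difference of 0.56 ± 0.13 (adjusted p = 0.00100). Wars, for tryptophan, which interferon gamma is known to raise, was at 17.1, 18.7, 15.8, 16.5 and 16.3 CPM in PBS and at 25.4, 20.001, 20.6, 25.3 and 29.2 in CDDP, a difference of 0.51 ± 0.13 (adjusted p = 0.00251). All 3 genes had groups that did not overlap.

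The other cytosolic genes that rose were Farsb (15.02 ± 2.41 CPM in PBS, 24.8 ± 2.03 in CDDP; SD, n = 5) and Farsa (31.5 ± 2.95 and 41.6 ± 5.67), the subunits of the phenylalanine enzyme, Aars for alanine (144 ± 12.9 and 215 ± 59.9) and Sars for serine (64.0 ± 5.37 and 83.4 ± 25.4). Their log2 differences were 0.72, 0.40, 0.57 and 0.38. The groups overlapped for Aars and Sars. Aars lost its call when only these groups were fitted (edgeR adjusted p = 0.0653). Farsa lost it without PBS replicate 2, 3 or 4 or CDDP replicate 4 or 5 (adjusted p from 0.0522 to 0.0872), and Sars without PBS replicate 1 or 3 or CRS replicate 4, and without CDDP replicate 4, where its difference was 0.18 (adjusted p = 0.253). Both also lost their calls without the libraries rich in muscle or brain transcripts (edgeR adjusted p = 0.0889 for Farsa and 0.0629 for Sars). The same held with no filter on low counts (0.0660 and 0.0787) and when only these groups were fitted (0.0559 and 0.174). Sars lost its call with RLE normalization (edgeR adjusted p = 0.0573) and with a filter of 1 CPM in 5 libraries (0.0539) as well. Exons of Aars and Exosc6 share 1326 bases on the same strand. Genes that did not pass included Tars for threonine (0.51, adjusted p = 0.0507), Mars for methionine (0.39, 0.0758) and Yars for tyrosine (0.25, 0.205). With limma voom, which called 39.2% of all genes, Tars (0.57, adjusted p = 0.0209) and Yars (0.43, adjusted p = 0.00957) passed. By edgeR Tars passed without any 1 of 9 libraries (CDDP replicates 2 and 5, CRS 1 and 3, ACBP 1, CDDP+ACBP 3 and 5, CRS+ACBP 1 and 2), Mars without CDDP replicate 2 or ACBP replicate 2 (lowest adjusted p = 0.0247), and Yars without CDDP replicate 5 (adjusted p = 0.0395). The smallest differences were those of Dars (0.14) and Rars (0.09), for aspartate and arginine. All 20 fitted differences were positive. Of the 5 genes with the response element core 3 rose (Gars, Iars and Aars). Of the 8 cytosolic genes with a window but no core 5 rose (Eprs, Farsa, Farsb, Kars and Sars). Beside both counts, 23.1% of all genes rose, and both include calls lost under some alternatives (Aars, and Farsa and Sars). Hars, Nars, Lars and Wars, which also rose, had no matched window and were not searched.

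Rises occurred inside and outside the large complex. Of its 8 enzymes 4 rose (Kars, Iars, Eprs and Lars; median log2 difference 0.48), and of the 12 outside it 8 rose (median 0.51). By catalytic fold, 4 of the 10 class I and 8 of the 10 class II cytosolic genes rose. Beside each of these counts, 23.1% of all genes rose. Aars, Farsa and Sars, all in class II and outside the complex, lost their calls under some alternatives. Eprs, the fused enzyme, was counted in class I by its glutamate part only. Among the scaffold proteins, Eef1e1 was at 5.53 ± 0.989 CPM in PBS and 10.4 ± 4.19 in CDDP (log2 difference 0.92, adjusted p = 0.00459), Aimp2 at 13.4 ± 1.08 and 17.1 ± 2.53 (0.36, adjusted p = 0.0415), and Aimp1, at 26.6 ± 3.93 and 31.5 ± 4.83, did not pass the test.

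**Figure D2:**
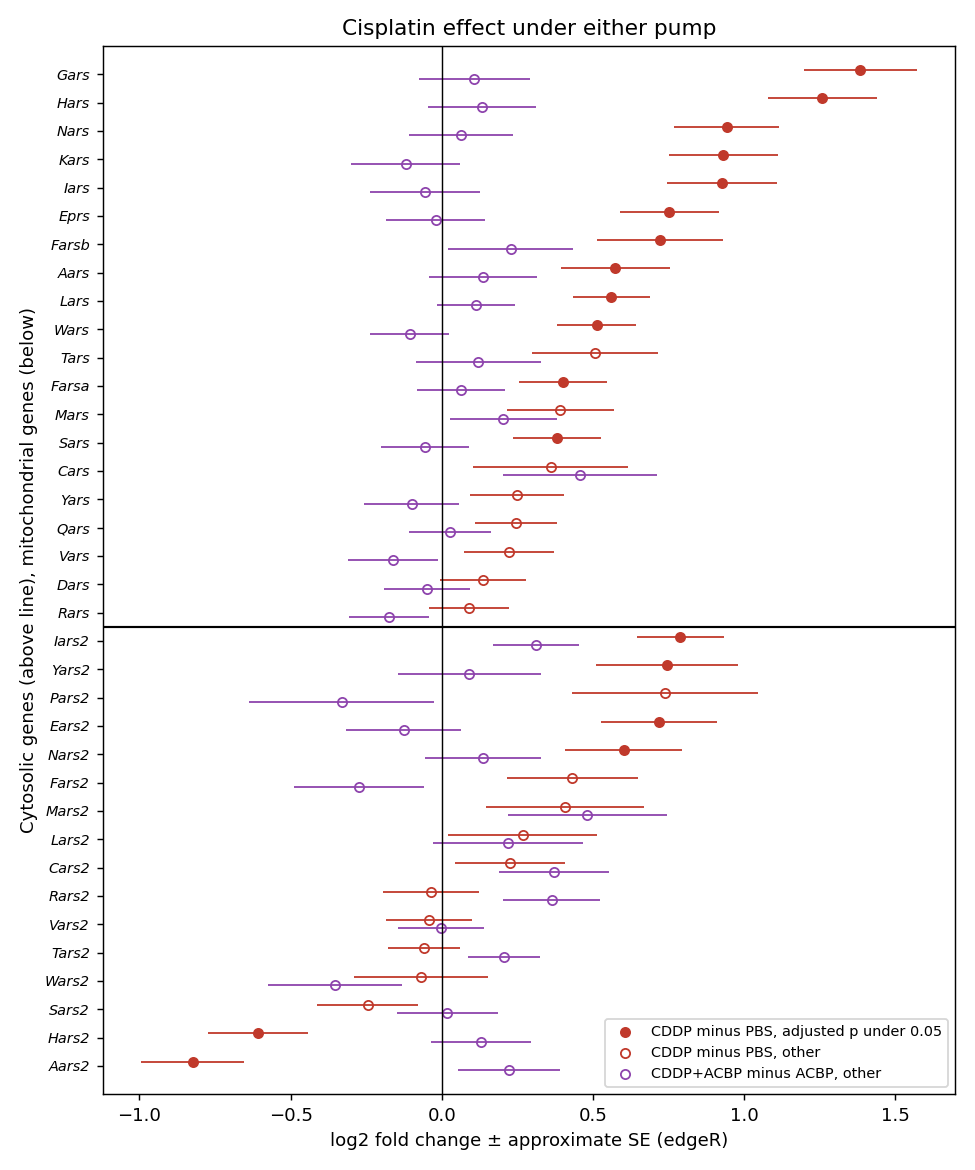
Points are log2 fold changes from edgeR with approximate standard errors as bars, for the same genes in CDDP minus PBS (red) and for CDDP+ACBP minus ACBP (purple); filled points passed an adjusted p of 0.05. Every red cytosolic point lies right of 0 and 12 are filled, while no purple point is filled.

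The mitochondrial genes went in both directions. Iars2 was at 26.5, 35.1, 32.3, 33.6 and 34.8 CPM in PBS and at 47.6, 63.4, 53.0, 56.0 and 60.5 in CDDP, a log2 difference of 0.79 ± 0.14 (edgeR adjusted p = 9.63e-05). The groups did not overlap, but 2034 exon bases of Iars2 lie opposite exons of Rab3gap2. Ears2, for glutamate, was at 7.12, 10.99, 7.497, 9.61 and 6.06 CPM in PBS and at 15.9, 13.9, 12.2, 12.5 and 13.5 in CDDP, a difference of 0.72 ± 0.19 (adjusted p = 0.00352). Every CDDP library was again the higher. Yars2 (7.78 ± 1.95 and 13.04 ± 3.18 CPM) and Nars2 (7.77 ± 0.471 and 11.8 ± 2.06) rose by 0.75 and 0.60, and Yars2 lost its call without CDDP replicate 4 (adjusted p = 0.0512). Pars2, the proline enzyme, had a difference of 0.74 ± 0.31 that did not pass (adjusted p = 0.0533), and the rest of the genes lay between -0.24 (Sars2) and 0.43 (Fars2). Pars2 passed without PBS replicate 3, CDDP replicate 3, ACBP replicate 1 or CRS+ACBP replicate 3 (lowest adjusted p = 0.0172), Sars2 passed as lower without CDDP replicate 1 (-0.42, adjusted p = 0.0374), and Cars2 passed with limma voom (0.50, adjusted p = 0.00802).

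Aars2 and Hars2 fell while their cytosolic partners rose. Aars2 was at 48.1, 36.1, 37.2, 36.0 and 48.5 CPM in PBS and at 27.5, 17.7, 30.7, 22.7 and 17.7 in CDDP, a log2 difference of -0.82 ± 0.17 (adjusted p = 0.000376). Hars2 was at 50.9, 32.5, 31.7, 41.0 and 43.1 CPM in PBS and at 28.04, 20.001, 29.7, 30.1 and 22.8 in CDDP, a difference of -0.61 ± 0.17 (adjusted p = 0.00450). Neither gene had a CDDP library inside the PBS range. Their partner ratios, taken on CPM and not per length, did not overlap between the groups: log2 of Aars over Aars2 was 1.37 to 2.13 in PBS and 2.77 to 3.998 in CDDP, and log2 of Hars over Hars2 was -1.85 to -0.86 in PBS and 0.23 to 0.80 in CDDP. In the other 4 groups the Hars ratio lay between -2.14 and -0.27, so Hars had more counts than Hars2 in the 5 CDDP libraries and in none of the other 25. Of 17 such pairs only these 2 had ratios that did not overlap between CDDP and PBS.

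Hars and Hars2 are neighbours on chromosome 18 of mm10, head to head (Hars at 36766528 to 36783205 on the minus strand, Hars2 at 36783008 to 36792562 on the plus strand), and their exons overlap by 195 bases. The labels call the libraries strand-specific, but the strand setting of the counting is not given in the sources used here, so reads in overlaps on opposite strands may have been assigned to either gene. The same holds for Mars, which overlaps Ddit3 by 68 bases, and Cars2, which overlaps Naxd by 422.

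**Figure D3:**
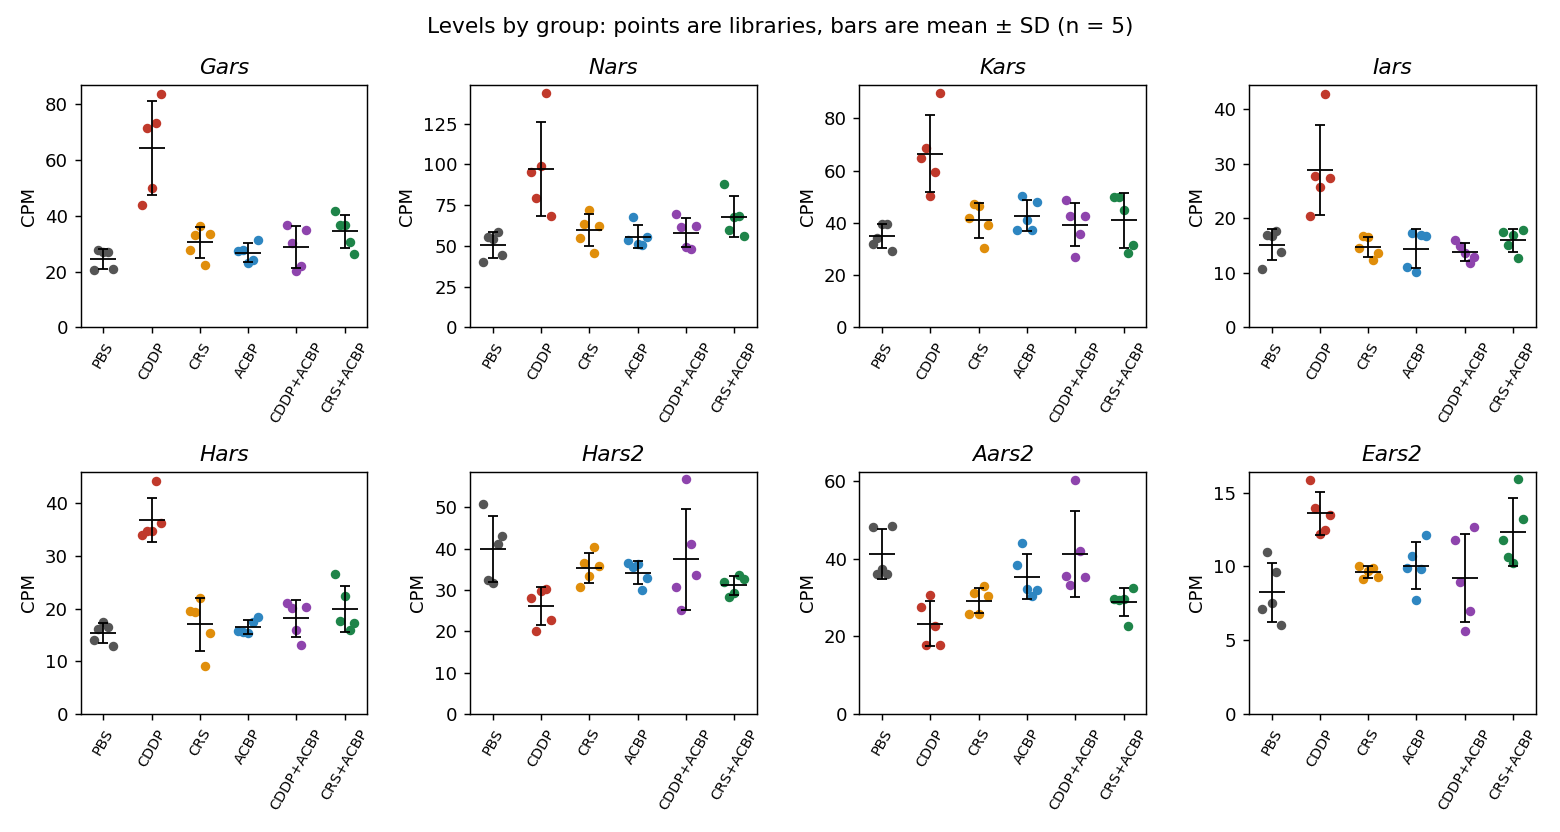
Each point is a library and the bars are the mean ± SD of 5 libraries, in CPM, for 8 synthetase genes across the 6 groups. The CDDP libraries stand above the PBS and CDDP+ACBP libraries for Gars, Hars, Kars and Iars and above PBS for Nars and Ears2, and they stand below PBS for Hars2 and Aars2.

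The share of reads from the mitochondrial genome also differed with cisplatin. It was 11.5 ± 1.85% of gene counts in PBS and 3.44 ± 0.423% in CDDP (SD, n = 5), a difference of -8.02 percentage points (2-sided exact permutation test, p = 0.00794, the smallest that 5 against 5 can give; adjusted over 3 comparisons 0.0238). Of 20 genes around mitochondrial translation 6 were higher and 4 lower, near the 23.1% and 18.3% of all genes. Gfm1, a mitochondrial elongation factor, was at 20.98 ± 5.79 CPM in PBS and 43.0 ± 6.56 in CDDP, and Mrrf, the ribosome recycling factor, at 10.9 ± 2.85 and 21.8 ± 4.52. Mtif2, the initiation factor, was lower, at 31.9 ± 7.98 and 18.8 ± 4.13.

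Other genes of cytosolic translation were also higher with cisplatin. Of 22 genes listed for initiation 19 rose and 1 fell (median log2 difference 0.79). Of 10 genes listed for elongation and termination 8 rose and 1 fell (median 1.31). Over all genes 23.1% rose and 18.3% fell. The lists also hold regulators: a repressor of initiation was among the genes that rose, and the elongation gene that fell encodes a kinase. Eif1a, which helps find the start codon, was at 19.7 ± 2.23 CPM in PBS and 133 ± 52.6 in CDDP. Eif2s1, the eIF2 subunit that stress kinases phosphorylate, was at 16.7 ± 2.41 and 43.3 ± 10.6. Etf1, the release factor that reads stop codons, was at 37.9 ± 2.45 and 101 ± 28.3, and Eef1b2, which recharges the elongation factor that carries tRNA to the ribosome, at 74.4 ± 15.4 and 307 ± 119. Among tRNA proofreading and synthetase-like genes 3 of 6 rose, against 23.1% of all genes. They were Yrdc, a tRNA modification enzyme (18.01 ± 1.37 and 41.0 ± 15.4 CPM), and the D-aminoacyl-tRNA deacylases Dtd2 and Dtd1. Dtd2 was at 6.49 ± 1.02 and 14.3 ± 2.81 CPM and Dtd1 at 6.69 ± 2.09 and 9.94 ± 1.56. Tarsl2, Aarsd1 and Prorsd1 did not pass the test.

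The list of ATF4 targets without the synthetases had 12 of 29 genes higher and 2 lower, against 23.1% and 18.3% of all genes. Its median log2 difference was 0.90. Asns was at 0 to 0.250 CPM in PBS and 0.853 to 7.66 in CDDP, low in both but without overlap. Sesn2, a stress-induced inhibitor of mTORC1, was at 5.61 to 11.7 and 20.1 to 239.6 CPM. Shmt2, the mitochondrial serine hydroxymethyltransferase and also an ATF4 target, went the other way, at 284 ± 27.5 and 157 ± 25.9 CPM. Among 8 genes for stress kinases, phosphatases and their regulators 3 rose and 1 fell, against 23.1% and 18.3% of all genes. The only kinase gene that rose was Eif2ak3, for PERK, at 7.34 ± 1.52 and 18.3 ± 7.69 CPM. The gene that fell was Eif2ak2, for the kinase PKR, at 16.1 ± 3.61 and 8.65 ± 2.98. Of 15 genes for MYC and ribosome production 8 rose and 1 fell, against 23.1% and 18.3% of all genes. Myc itself was at 2.06 to 3.94 CPM in PBS and 8.48 to 95.04 in CDDP. Of 12 genes of mTORC1 and amino acid sensing 4 rose and 2 fell, near the 23.1% and 18.3% of all genes. Interferon-stimulated genes, listed because Wars is among the genes interferon gamma induces, were lower in 21 of 28 and higher in 2. Over all genes 18.3% were lower and 23.1% higher. Wars, in contrast, was higher.

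With the ACBP pump, cisplatin was not followed by any called change in these genes. In CDDP+ACBP against ACBP livers edgeR called 0 of the 37 members (0.129% of all genes tested). Its unadjusted p was under 0.05 for 2 members (Rars2 and Iars2) and for 790 of all 16304 genes. DESeq2 and limma voom also called 0 members (0.559% and 0.429% of all genes). Iars2 had a log2 difference of 0.31 ± 0.14 (edgeR adjusted p = 0.971), and Gars of 0.11 ± 0.18, with a 95% interval of -0.25 to 0.47. For Hars the interval was -0.22 to 0.48, for Nars -0.27 to 0.40 and for Kars -0.47 to 0.23. These intervals end below the estimates of CDDP against PBS for the same genes. None of the 8 pathway lists had a called gene here.

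The CDDP+ACBP livers also differed from the CDDP livers directly. Of the 37 members 13 were lower and 2 higher, with 18.8% and 14.9% of all genes in these directions and 33.8% in either. Groups did not overlap for 7 lower and 1 higher member, against 8.09% and 6.02% of all genes. The lower ones were 10 cytosolic genes (Gars, Iars, Hars, Eprs, Lars, Nars, Kars, Farsa, Qars and Wars) and 3 mitochondrial ones (Iars2, Ears2 and Yars2), and the higher ones were Aars2 and Hars2. A fit of only these 2 groups called 6, when 15% of all genes were called. Leaving out each library in turn, 10 of the 15 kept their call, and Ears2, Hars2, Qars, Wars and Yars2 lost it without at least 1. Without CDDP+ACBP replicate 3, Mars (-0.48, edgeR adjusted p = 0.0468) and Vars (-0.46, edgeR adjusted p = 0.0207) passed as lower. Because both this comparison and CDDP against PBS use the CDDP libraries, a value that is high in them appears in both, and the 12 genes called higher in the first and lower in the second are counted with that limit.

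Gars was at 36.8, 30.2, 20.4, 22.04 and 34.9 CPM in the CDDP+ACBP libraries, and all 5 lay below the lowest CDDP library (log2 difference -1.16 ± 0.19, edgeR adjusted p = 4.06e-05). Iars was at 16.04, 14.9, 13.6, 11.7 and 12.9 CPM, within the range of PBS (-1.06 ± 0.18, adjusted p = 8.74e-05). Hars was at 21.1, 20.1, 16.04, 13.1 and 20.4 CPM (-1.02 ± 0.18, adjusted p = 0.000104). In each of these genes the groups did not overlap. Eprs was at 77.9, 69.3, 55.5, 73.5 and 82.3 CPM (-0.76 ± 0.16), Kars at 48.7, 42.6, 27.02, 35.6 and 42.8 (-0.76 ± 0.18) and Lars at 21.4, 15.8, 21.6, 20.8 and 22.2 (-0.57 ± 0.13), also without overlap. Nars, at 69.5, 61.7, 49.4, 48.2 and 62.1 CPM (-0.74 ± 0.17), had 1 library above the lowest CDDP library, and Wars, at 19.9, 19.3, 20.2, 17.2 and 14.8 CPM (-0.40 ± 0.13), had 1 in the CDDP range as well.

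Among the mitochondrial genes, Iars2 was at 41.2, 34.6, 45.4, 36.2 and 43.2 CPM in CDDP+ACBP, between most PBS and all CDDP libraries (log2 difference from CDDP -0.48 ± 0.14, edgeR adjusted p = 0.0100). Ears2 was at 11.8, 8.98, 5.65, 7.004 and 12.6 CPM, with replicate 5 inside the CDDP range (-0.56 ± 0.19), and lost its call without CDDP replicate 1 or CDDP+ACBP replicate 3 or 4 (adjusted p up to 0.0767). Aars2 was at 35.4, 33.1, 60.2, 41.9 and 35.4 CPM, above all CDDP libraries (0.82 ± 0.17, adjusted p = 0.000586). Hars2 was at 30.8, 25.2, 56.8, 41.0 and 33.5 CPM, with replicate 2 inside the CDDP range (0.52 ± 0.17, adjusted p = 0.0165). Its difference was 0.32 without CDDP+ACBP replicate 3 (adjusted p = 0.106), and it also lost its call without CDDP replicate 2, while Aars2 passed without replicate 3 (0.65, adjusted p = 0.00347). Yars2 lost its call without CDDP replicate 4 or CDDP+ACBP replicate 3 or 4, Wars without CDDP or CDDP+ACBP replicate 5, and Qars without CDDP replicate 5. Replicate 3 was the highest CDDP+ACBP library for both Aars2 and Hars2.

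The effect of cisplatin differed between the pumps for 10 members by the interaction term, which compares CDDP minus PBS with CDDP+ACBP minus ACBP. It was negative for 8 (Gars, Hars, Kars, Iars, Nars, Wars, Eprs and Ears2) and positive for 2 (Aars2 and Hars2), with 11.3% and 8.38% of all genes called in these directions and 19.7% in either. Gars had the largest term, -1.28 ± 0.26 on the log2 scale (edgeR adjusted p = 0.00148), followed by Hars at -1.12 ± 0.25 (adjusted p = 0.00307), Kars at -1.05 ± 0.25 (adjusted p = 0.00518) and Aars2 at 1.04 ± 0.24 (adjusted p = 0.00365). Without the libraries rich in muscle or brain transcripts the count was 5, when 10.4% of all genes were called. Ears2 lost its call without PBS replicate 1 or 5, ACBP replicate 5 or CDDP+ACBP replicate 3 or 4. Hars2 lost it without PBS replicate 1, CDDP replicate 2 or CDDP+ACBP replicate 3. The edgeR adjusted p in these fits was up to 0.0694. Farsa passed with a negative term without CDDP+ACBP replicate 3 (-0.52, edgeR adjusted p = 0.0453). Cdkn1a, a p53 target that DNA damage raises and that was named here after its values were seen, was at 0.688 to 6.46 CPM in PBS, 154 to 456 in CDDP and 5.12 to 63.2 in CDDP+ACBP. Whether the CDDP and CDDP+ACBP livers had the same cisplatin exposure was not tested.

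By edgeR with all libraries, no member was called after CRS or ACBP alone. In CRS against PBS edgeR called 0 of 37 members (0.141% of all genes). Its unadjusted p was under 0.05 for 3 members and for 1462 of all 16304 genes. DESeq2 called 0 members (0.492% of all genes), limma voom 3 (5.70%) and edgeR on only these groups 1 (1.78%). Nars2 had the smallest p, with a log2 difference of 0.57 ± 0.19 (edgeR adjusted p = 0.333), and Aars2 was next at -0.50 ± 0.17 (adjusted p = 0.342). Averaged over both pumps, CRS and CRS+ACBP against PBS and ACBP, edgeR again called 0 (0.687% of all genes). Its unadjusted p was under 0.05 for 9 members and for 2503 of all 16304 genes. DESeq2 called 2 members (2.30% of all genes) and limma voom 7 (12.4%). Aars2 was at 25.6, 31.2, 25.9, 32.9 and 30.4 CPM in CRS and at 29.6, 29.5, 29.5, 22.7 and 32.6 in CRS+ACBP. All 10 lay below the lowest PBS library, 36.0, but some lay inside the ACBP range of 30.4 to 44.0 (-0.40 ± 0.12, adjusted p = 0.115). Nars2 (0.48 ± 0.14, adjusted p = 0.0920), Lars (0.30 ± 0.09, adjusted p = 0.120) and Gars (0.34 ± 0.13, adjusted p = 0.218) had positive differences that did not pass.

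ACBP against PBS had 0 called members by edgeR, DESeq2 and limma voom (0%, 0.0587% and 0.0123% of all genes). The unadjusted edgeR p was under 0.05 for 1 member and for 714 of all 16304 genes. CRS+ACBP against CRS, CRS+ACBP against ACBP and the interaction of CRS and ACBP also gave 0 by all 3 tools. Over all genes the share was 0% by edgeR and up to 0.131% by the others. The unadjusted edgeR p was under 0.05 for 1, 4 and 0 members, and for 468, 1194 and 388 of all 16304 genes. Fitted differences of ACBP from PBS ran from -0.38 to 0.46 over the 37 genes on the log2 scale.

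Cisplatin and restraint livers, both with the PBS pump, were compared directly. In CDDP against CRS 15 members were higher and 1 lower (19.5% and 15.1% of all genes, 34.6% in either direction), 13 of the higher ones cytosolic. Hars (log2 difference 1.11 ± 0.18, edgeR adjusted p = 3.97e-05), Gars (1.07 ± 0.19) and Iars (0.97 ± 0.18) led, and Hars2 was the lower one (-0.44 ± 0.17, adjusted p = 0.0419). Aars2, low in both groups, did not pass (-0.33 ± 0.17, adjusted p = 0.138). The count was 10 without CDDP replicate 5 (29.9% of all genes), 10 without the libraries rich in muscle or brain transcripts (28.3%) and 9 when only these groups were fitted (25.1%). Leaving out each library in turn, 9 of the 16 kept their call, and Ears2, Eprs, Hars2, Qars, Tars, Vars and Wars lost it without at least 1. Cars passed as higher without CDDP+ACBP replicate 3 (0.48, edgeR adjusted p = 0.0396).

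Lars2, for mitochondrial leucine, varied widely within groups. It was at 850.4, 440.2, 560.5, 723 and 534 CPM in PBS and at 617, 963, 777, 483 and 901 in CDDP, and reached 1490.1 in CRS+ACBP replicate 2. It was called in none of the 11 comparisons. Among 12445 other genes whose mean reached 2 CPM, those most like Lars2 across the 30 libraries on the log2 scale were Gm23935 (Pearson's r 0.81), Rn18s-rs5 (0.80) and Gm42418 (0.79), and with group means removed r was 0.84, 0.82 and 0.80. Rn18s-rs5 is a gene related to 18S ribosomal RNA. The next member by its r with Rn18s-rs5 was Cars2, at 0.25. The likeness is a description over libraries that share these groups, Lars2 was singled out after its values were seen, and what the carry-over of ribosomal RNA into each library contributed was not tested.

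**Figure D4:**
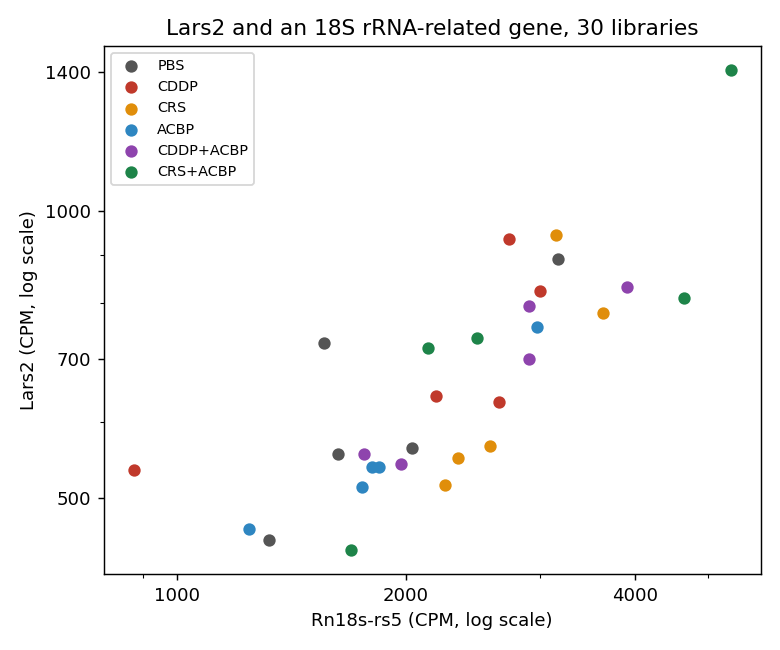
Each point is a library, with Rn18s-rs5 on the horizontal axis and Lars2 on the vertical axis, both in CPM without TMM factors and both on log scales, coloured by group. The groups overlap, and libraries with more Rn18s-rs5 tend to have more Lars2 within them.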

How the data were processed

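Gene-level data for 30 liver mRNA libraries, 5 in each of 6 groups, came as a single table. What the authors deposited are raw read counts, not normalized; per the submitters' processing notes, HISAT2 2.2.1 aligned the reads and HTSeq 2.0.3 counted them on mm10. The annotation release is not given in the sources used here, nor is the strand setting. The table's 48440 genes were kept, the 5 summary lines were left out, and 99.21% of identifiers matched GENCODE vM21, which gave positions and exon lengths. Replicates were compared first: within groups, chi-square per degree of freedom was never under 21.1, so no library was a copy of another. Groups came from the treatment labels, which name no batch and no pairing.

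All 16304 genes that passed filterByExpr were fitted at once with edgeR 4.0.16 in R 4.3.3 (TMM, quasi-likelihood F test, 24 residual degrees of freedom). A gene was called at a Benjamini-Hochberg adjusted p under 0.05 over all genes in each of 11 comparisons. Standard errors are approximate: the size of the log2 fold change over the square root of F. Mitochondrial genome shares were compared by exact permutation tests. Alternatives were RLE normalization, no filter, a filter of 1 CPM in 5 libraries, DESeq2 1.42.0, limma 3.58.1 voom with quality weights, a fit restricted to the groups compared, and omitting each library in turn; a fit without 7 libraries was added after seeing the data. Marker sums and Lars2 likeness used CPM without TMM factors (pseudocount 0.5 on the log2 scale). Figures and tables used Python 3.11.15 with pandas 2.3.3, scipy 1.17.1 and matplotlib 3.10.9.

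Members, lists, tests and the naming rule were chosen with earlier results of these data known. By that rule any member may be named; values in every library are given for up to 12 members, those called in the most comparisons and then with the smallest p in CDDP against PBS, plus Wars, Aars2, Hars and Hars2. From each partner list all genes, and from each pathway list up to 3 called genes with the smallest p, may be named. A mitochondrial gene and 1 promoter sequence are counted but not shown or drawn here. Lars2 and Cdkn1a were taken up after their values were seen.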

Additional observations from a re-analysis of the deposited data

Results flagged for a closer look

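Within groups of 5, a library was marked when its gap to the nearest other library was over 0.71 of the group's range, which chance gives in about 1 of 20 groups; 6 of 84 groups checked had such a library. For Hars it was CDDP replicate 4, at 44.2 CPM. For Nars it was ACBP replicate 2, at 67.6 CPM. Eprs had CDDP replicate 5 high, at 208 CPM, and CRS+ACBP replicate 5 low, at 77.2 CPM. For Lars it was CDDP+ACBP replicate 2, at 15.8 CPM, which is also a library rich in muscle transcripts. The share of counts from the mitochondrial genome was 17.4% in CRS replicate 4, above the other 4 CRS libraries. Not all 37 genes were in this check, so the list is not complete. Among genes outside it, Cars had CDDP+ACBP replicate 3 at 124 CPM, with the next library at 51.4. Sars had CDDP replicate 4 at 127 CPM, with the next library at 78.7.

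The cisplatin effect differed between the pumps, by the interaction term in edgeR, for 10 genes, with 19.7% of all genes called, and for 5 without the libraries rich in muscle or brain transcripts. On the log2 scale the term was -1.28 for Gars, -1.12 for Hars, -1.05 for Kars, -0.98 for Iars, -0.88 for Nars, -0.84 for Ears2, -0.77 for Eprs and -0.62 for Wars. It was 1.04 for Aars2 and 0.74 for Hars2.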

How the results depend on the processing

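Of the 18 calls in CDDP against PBS, 14 held under every alternative; Aars, Farsa, Sars and Yars2 lost theirs under at least 1, while Cars2, Mars, Pars2, Sars2, Tars and Yars, not called, passed under at least 1. Leaving out each library in turn gave 15 to 20 calls there, 13 to 17 for CDDP+ACBP against CDDP, 8 to 11 for the interaction of CDDP and ACBP, 10 to 17 for CDDP against CRS, and 0 for the other 7 comparisons. With all libraries 41.4% of all genes were called in CDDP against PBS and 33.8% in CDDP+ACBP against CDDP. The share was 19.7% for the interaction and 34.6% in CDDP against CRS. Counts of members may change along with the number called over all genes. Fitting only the groups compared gave 6 for CDDP+ACBP against CDDP, 9 for CDDP against CRS, 1 for CRS against PBS and 2 for CRS over both pumps. The shares of all genes in these fits are given with the results above, except for CRS over both pumps. Without the libraries rich in muscle or brain transcripts there were 10 for CDDP against CRS and 5 for the interaction. For CRS, limma voom gave 3 against PBS and 7 over both pumps, and DESeq2 gave 2 over both pumps; the cause of these differences was not tested. Directions of single genes were followed in CDDP against PBS, where leave-one-out turned the direction of 3 uncalled differences near 0: Rars2 (-0.103 to 0.0324), Tars2 (-0.149 to 0.00189) and Vars2 (-0.144 to 0.0327). The mitochondrial share in CRS against PBS ranged from -2.74 points, without CRS replicate 4 (exact permutation p = 0.0397), to -0.13. No paired analysis was possible because the labels number the libraries without pairing them between groups. Depth limits Pars2 and Mars2 the most, with medians of 43 and 60 counts per library.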
